A study of Homo sapiens with 6 samples.

Results

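Of the 20514 rows of the count table, 200 fell at least 2-fold when A172 cells received an siRNA against ADAR1 and regained at least 50% of that fall, on a log2 scale, when an siRNA against Staufen1 was added. Each row bundles UCSC hg19 transcripts and stands for a gene here. Levels are CPM, the share of a library's reads that fell in a row, scaled to a common library total, and 0.1 CPM was added to each group mean. A row was a member if its siControl level with this addition was at least 2 CPM, its level with siADAR1 was at most 50% of that, and its recovery was at least 50%. Recovery divides the log2 rise from siADAR1 to both siRNAs by the log2 fall from siControl to siADAR1 and is given in percent, so that 100% is a full return. Of the 11479 rows at the minimum level, 350 (3.05%) fell at least 2-fold. Recovery reached 50% in 203 of those 350, or 58.0%, and 3 of the 203, whose falls were among the largest, were left out by the rule. The remaining 147 rows that fell recovered less and serve as the nearest comparison.

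A172 is an established human glioblastoma line. There were 3 groups of 2 libraries each: siControl cells had a control siRNA, siADAR1 cells an siRNA targeting ADAR1, and cells of the combined knockdown siRNAs targeting both ADAR1 and Staufen1. Per the labels' treatment text, which is the same for every library, a plasmid for HA-tagged STAU1 followed the siRNA on the next day, and that text does not mention the Staufen1 siRNA. No group with the Staufen1 siRNA alone was analysed here, so its effect is seen only on top of the ADAR1 siRNA, and all cells belong to 1 line.

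ADAR1 binds double-stranded RNA and converts adenosines in it to inosines. Staufen1 (STAU1) also binds double-stranded RNA, and where it binds the 3′ untranslated region of an mRNA it can recruit the decay factor UPF1, a route called Staufen-mediated decay. The title of the series names inhibition of this decay by ADAR1 in stressed cells. Genes that are lost without ADAR1 and return when Staufen1 is also reduced are the pattern such a model describes, and the rule picked rows for this pattern. The falls, the rises and the recoveries of the members are therefore a description and carry no test.

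The file pairs its rows with no gene symbols, and none of the 200 members could be matched to one in the RefSeq gene table used here. Functions, sequences, the levels of ADAR and STAU1, markers of the cell line and the relation of the members to genes named elsewhere in the study were not analysed here. The members are described by their levels, and 4 of them by the first ID of their row. Library totals ran from 20291057 to 29508632 reads. Counts of replicates differed beyond sampling noise, with chi-square values per degree of freedom of 3.47 to 9.39. Nothing in the labels says that replicates came from separate cultures, so their spread may be technical.

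As a group the members held 2.49% and 2.42% of all reads in the siControl libraries, replicates a and b. Their share was 0.800% and 0.816% in the siADAR1 libraries and 1.81% in each library of the combined knockdown. The 3 groups did not overlap, and the replicates lay far closer together than the groups. The summed level with siADAR1 was 32.9% of siControl, and that of the combined knockdown 73.8%, so 61.0% of the lost CPM was regained. The row with most reads did not set this: without it the same levels were 36.1% and 76.6% of siControl. The 147 rows that recovered less had fallen to 37.6% of siControl and stood at 46.6% in the combined knockdown, which is 14.3% of their lost CPM. With 2 libraries a group an exact two-sided permutation test cannot give a p below 0.333, and the rule used these libraries, so no p is given.

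**Figure D1:**
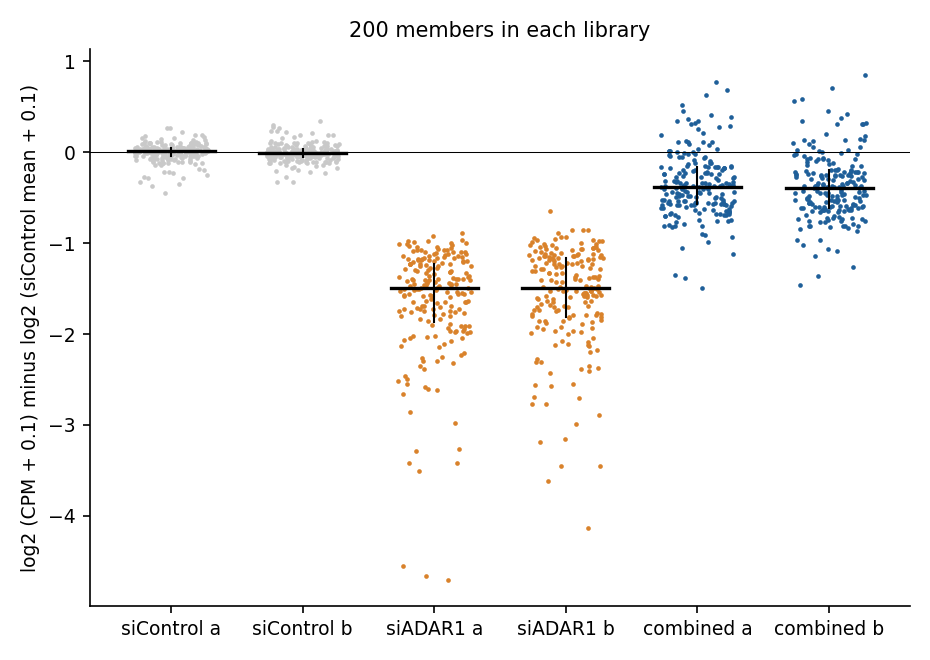
Level of each of the 200 members in each of the 6 libraries, as log2 of its CPM plus 0.1 minus log2 of its siControl mean plus 0.1. Each point is a row, the horizontal bar the median and the vertical bar the quartiles. Both siADAR1 libraries lie below the siControl libraries and both libraries of the combined knockdown lie in between, with some rows above 0.

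The typical member lost most of its reads with siADAR1 and regained most of that loss when the Staufen1 siRNA was added. Its median level was 25.4 CPM in siControl (quartiles 7.32 and 84.1), 8.72 CPM in siADAR1 (2.40 and 32.3) and 19.6 CPM in the combined knockdown (6.08 and 70.1). Within a row, the siADAR1 level was at the median 36.2% of siControl (0.754% to 49.6%) and the combined knockdown level 75.6% (37.0% to 171%). On the log2 scale the median fall was -1.46 and the median rise 1.13, leaving a median of -0.40 to siControl. Median recovery was 73.4%, with quartiles of 62.1% and 88.8%. Measured on linear CPM in place of log2, the median share of the loss regained was 60.7%. Most rows did not fall on this scale: over all 11479 rows at the minimum level, members included, the lower quartile of the log2 change with siADAR1 was -0.14. The median log2 change to siControl was 0.28 in siADAR1 and 0.16 with both siRNAs, and the members' falls are set against that rise. With TMM scaling, which centres most rows, the medians over all rows were -0.02 in both, and the members' own medians were -1.75 and -0.58 with a median recovery of 67.8%.

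**Figure D2:**
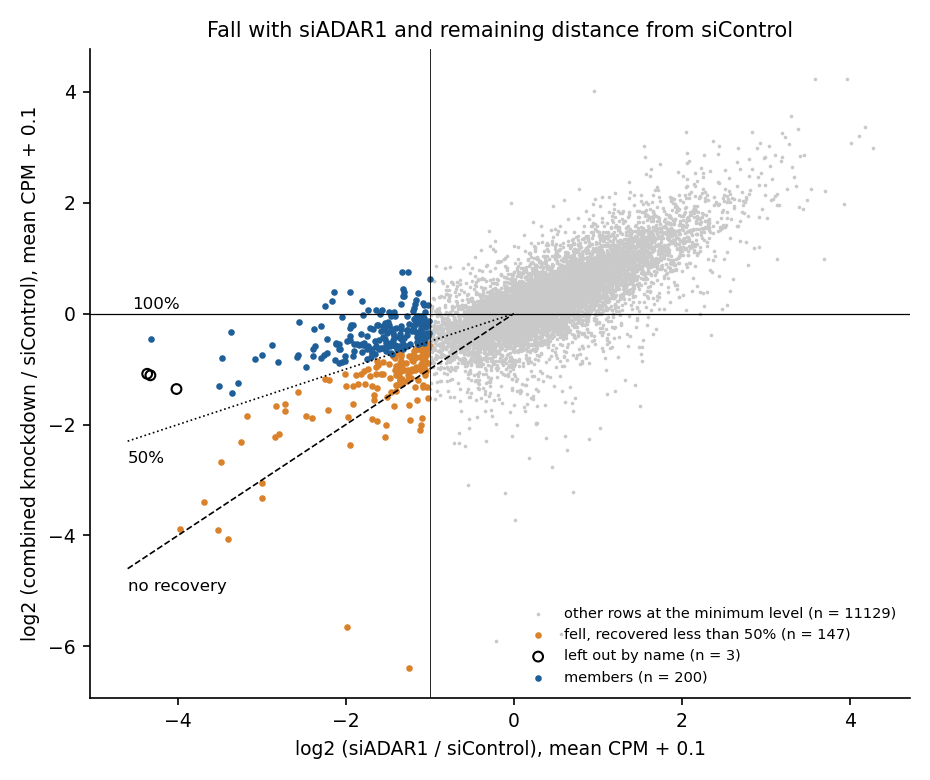
Log2 change with siADAR1 (x axis) against log2 change with the combined knockdown (y axis), both relative to siControl and from group mean CPM plus 0.1, for the 11479 rows at the minimum level. The dashed line is no recovery, the dotted line 50% and the horizontal line 100%; the 200 members lie above the dotted line and the 147 rows that recovered less lie below it.

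The threshold of 50% did not fall in a gap. Among the rows that fell, 30 had a recovery of 40% to 50% and 36 one of 50% to 60%. The 3 members nearest to it had recoveries of 50.08%, 50.14% and 51.4%, and the 3 rows just outside 49.96%, 48.9% and 47.9%. At the limit of the fall, the nearest members had log2 changes of -1.004, -1.011 and -1.016, and the nearest rows outside -0.999, -0.990 and -0.988. At the limit of the level, the nearest members stood at 2.002, 2.0375 and 2.0405 CPM with the addition and the nearest rows outside at 1.997, 1.987 and 1.962 CPM. The members are thus the upper part of a continuous range of recoveries, which reached below 0 in the 25 rows whose level fell further in the combined knockdown.

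**Figure D3:**
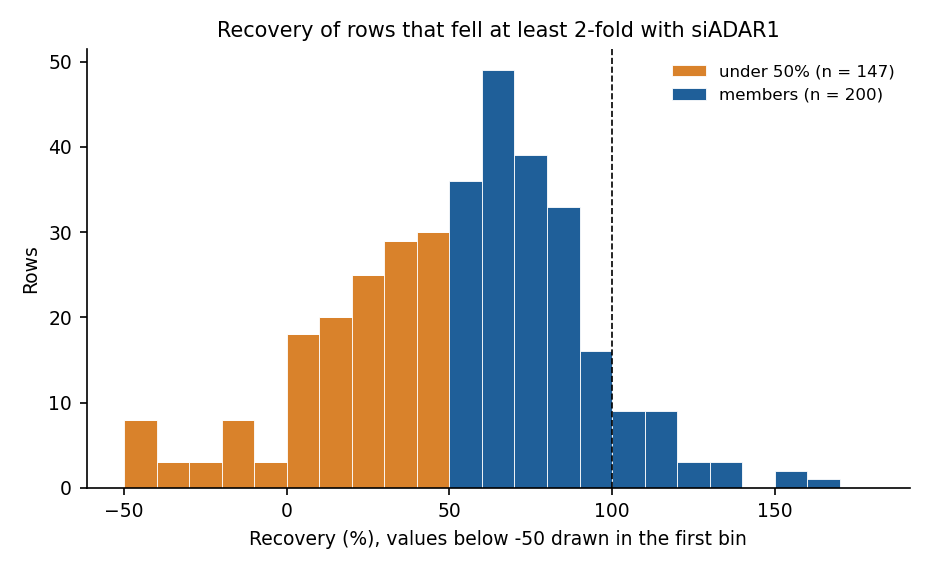
Number of rows (y axis) by recovery in percent (x axis, bins of 10) for the rows that fell at least 2-fold with siADAR1, apart from the 3 left out. The 147 rows under 50% and the 200 members form 1 continuous distribution, and the dashed line at 100% marks a full return to siControl, passed by 27 members.

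Recovery within the group was mostly partial. It was 50% to 75% in 106 members, 75% to 100% in 67 and over 100% in 27. In the combined knockdown 26 members were within 10% of their siControl mean and 95 within 25%, whereas 3 remained under 50% of it. Median recovery of the members, all at 50% or more by the rule, differed little with the depth of the fall. The 123 members that fell 2 to 3-fold had a median recovery of 75.5%, the 40 that fell 3 to 4-fold 70.9%, and the 37 that fell 4-fold or more 73.3%. Of these, 20, 4 and 3 members in turn were over 100%. Members made up 54.4% of the rows that fell 2 to 3-fold, 64.5% of those that fell 3 to 4-fold and 62.7% of those that fell further. These shares are descriptions, since the fall is part of the measure of recovery.

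Reads were unevenly spread over the members, and the 5 rows with most siControl reads held 40.7% of the group's siControl reads. CPM is not corrected for transcript length, so these are shares of reads and not numbers of molecules. The most abundant member stood at 4054 and 3865 CPM in siControl, 652 and 679 CPM in siADAR1, and 2342 and 2388 CPM in the combined knockdown. It fell by 2.57 on the log2 scale, the deepest fall among these 5, and its recovery was 71.1%. The second stood at 2280 and 2306 CPM, then 977 and 1018 CPM, then 1834 and 1895 CPM, a recovery of 75.2%. The third stood at 1539 and 1441 CPM, then 527 and 538 CPM, then 1271 and 1301 CPM. Its recovery of 85.7% was the highest of the 5. The other two recovered by 72.9% and 70.1%. In each of these 5 rows the combined knockdown libraries lay above both siADAR1 libraries and below both siControl libraries.

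Compared with the rows around them, the members leaned towards higher read shares in siControl, a level that the rule used, and this was not tested. In siControl, 48 members (24.0%) stood at 100 CPM or more, against 19.0% of the rows that recovered less and 15.4% of all rows at the minimum level. Under 10 CPM there were 62 members (31.0%), against 33.3% and 33.4%. The medians were 25.4 CPM for the members, 23.1 CPM for the rows that recovered less and 19.6 CPM for all rows. With siADAR1 they were 8.72, 7.28 and 26.5 CPM, and in the combined knockdown 19.6, 10.3 and 23.8 CPM. Against all rows, the members' median was thus higher in siControl only. Among rows that fell, 63.2% of those at 100 CPM or more were members, 56.3% of those at 10 to 100 CPM and 55.9% of those below. Median recovery of the members in the same order was 71.4%, 71.5% and 79.2%.

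The 5 largest falls came in rows of very different level, from about 2 to 412 CPM in siControl. The deepest was that of uc003ozh.1, a row of 1 transcript, with 42 and 60 reads in siControl, 0 and 1 reads in siADAR1, and 45 and 39 reads in the combined knockdown. Its pooled siADAR1 level was 0.808% of siControl, with an exact 95% interval of 0.0203% to 4.60% that covers counting error only. The row was picked for its fall in these same reads, and the interval does not allow for that choice. Its log2 fall of -4.33 includes the 0.1 CPM, and its recovery was 89.4%. The second, uc001rvx.4, a row of 4 transcripts, rests on far more reads. It stood at 402 and 376 CPM in siControl, 36.4 and 31.7 CPM in siADAR1, and 153 and 163 CPM in the combined knockdown. Its log2 fall was -3.51 and its recovery 62.9%. edgeR with TMM scaling gave it -3.82 (SE 0.082) with siADAR1 and 2.33 (SE 0.078) for the combined knockdown against siADAR1. It was 1 of the 3 members still under 50% of siControl.

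The third largest fall belonged to a row of 4 transcripts at 406 and 418 CPM in siControl, 36.1 and 37.5 CPM in siADAR1, and 236 and 235 CPM in the combined knockdown. Its recovery of 76.8% varied only from 76.0% to 77.6% over the choice of libraries. The fourth was again a low row, with 48 and 66 reads in siControl and 0 and 9 in siADAR1. Its combined knockdown libraries held 76 and 24 reads, a difference between replicates wider than its distance from siControl, and its recovery ran from 44.5% to 114% with the choice of libraries. The fifth went from 42.9 and 46.7 CPM to 4.57 and 3.999 CPM and then to 15.9 and 17.3 CPM, a recovery of 57.5%. Over the choice of libraries, recovery ran from 59.6% to 66.1% in the second row and from 53.3% to 61.6% in the fifth. In the scarce row with the deepest fall it ran from 81.9% to 96.3%.

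**Figure D4:**
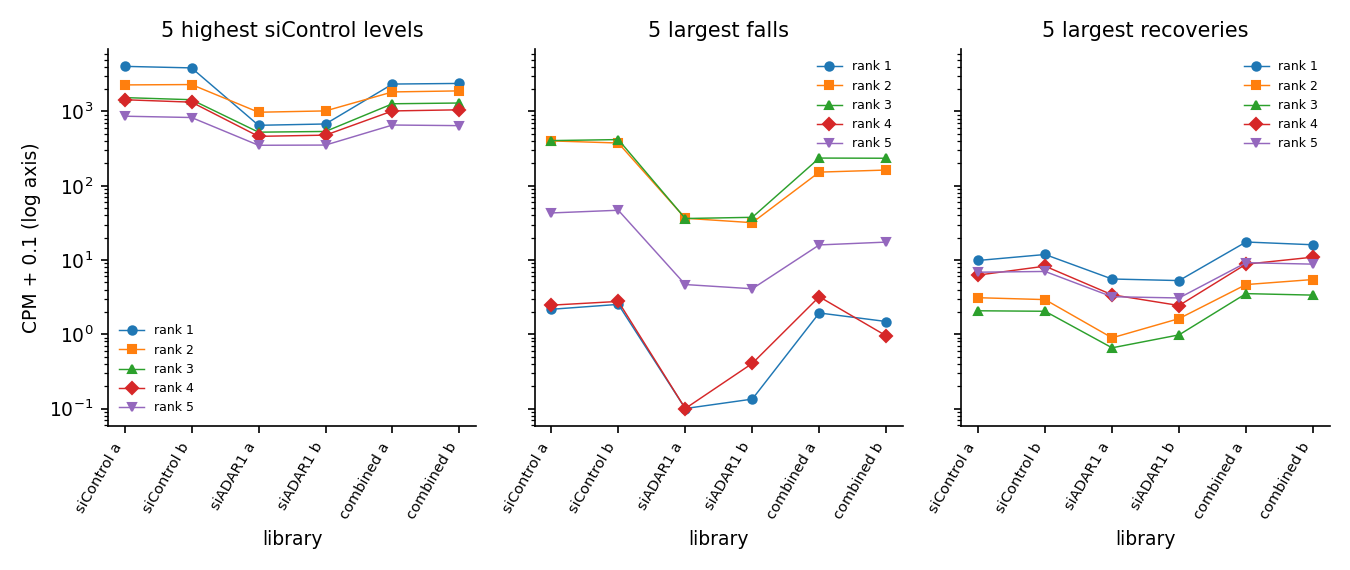
CPM plus 0.1 (log axis) in each of the 6 libraries for the members with the 5 highest siControl levels, the 5 largest falls and the 5 largest recoveries. Each line joins the values of 1 row only to guide the eye, and a library with no read is drawn at 0.1. The largest recoveries lie in rows under 20 CPM in every library.

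In 27 members the combined knockdown mean exceeded the siControl mean. The excess was small, with a median of 0.19 and a maximum of 0.75 on the log2 scale, and these rows were scarce, with a median of 7.14 CPM in siControl against 29.9 CPM for the other 173 members. Of the 62 members under 10 CPM, 18 overshot, against 7 of 90 at 10 to 100 CPM and 2 of 48 above. In 15 of the 27 both combined knockdown libraries lay above both siControl libraries, and in 12 the libraries overlapped. Such a separation upwards was common over all rows at the minimum level, at 52.8%. The count depends on the scaling: with TMM 14 of the 200 members lay above siControl, and with DESeq2 size factors 13.

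The largest recovery was that of uc003ufo.3, a row of 3 transcripts. It stood at 9.76 and 11.8 CPM in siControl, 5.45 and 5.18 CPM in siADAR1, and 17.4 and 15.9 CPM in the combined knockdown. Its recovery was 162%, and it was also the member with the shallowest fall (-1.004). edgeR with TMM scaling estimated it 0.44 (SE 0.12) above siControl in the combined knockdown. It was the 1 member called higher than siControl when edgeR's quasi-likelihood test was read at an adjusted p of 0.05, where 28.7% of all rows tested were called higher. The count of members called higher varied when single libraries were left out. With library totals in place of TMM it was 6, where 5737 of the 14711 rows tested were called higher. The next, uc003wzg.3, a row of 5 transcripts, had 61 and 70 reads in siControl, 20 and 45 in siADAR1, and 112 and 151 in the combined knockdown. Its recovery of 159% ranged from 133% to 206% over the choice of libraries. The next 3 recoveries were 156%, 134% and 133%, in rows of 1.96 to 7.16 CPM in siControl. In all 5 rows both combined knockdown libraries lay above both siControl libraries.

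Among abundant rows, overshoot on the CPM scale of the rule was seen in the 2 at 112 and 130 CPM. The former stood at 108 and 117 CPM in siControl, 42.8 and 48.0 CPM in siADAR1, and 139.78 and 139.95 CPM in the combined knockdown. Its log2 excess over siControl was 0.32, and its recovery stayed between 118% and 132% over the choice of libraries. The latter exceeded siControl by 0.07 only, with 127 and 133 CPM in siControl and 139 and 135 CPM in the combined knockdown. With TMM scaling, edgeR put the former at 0.13 (SE 0.07) against siControl and the latter below it, at -0.11 (SE 0.06). Neither row was called different from siControl. Both were singled out after their values were seen.

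edgeR's quasi-likelihood test, with adjusted p-values over 14711 rows, was run on all libraries, and all 200 members passed its filter on low counts. All 200 were called lower with siADAR1, where 29.7% of the rows tested were, and 198 were called higher in the combined knockdown than in siADAR1, where 21.7% were. The rule fixed these counts. The 2 members not called had 1.94 and 2.06 CPM in siControl. Against siControl, 153 members were called lower in the combined knockdown, against 25.8% of all rows. Another 46 were called in neither direction. Their log2 changes on the CPM scale of the rule ran from -0.58 to 0.75, with a median of 0.05. The TMM-scaled estimates of the test itself ran lower for these members, from -0.79 to 0.59. A missed threshold does not show that these rows had returned to their siControl level. With library totals in place of TMM, 124 members were called lower than siControl, where 2349 of the 14711 rows tested were.

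The separation of the libraries followed largely from the rule. In all 200 both siADAR1 libraries lay below both siControl libraries, where 26.3% of rows at the minimum level did, and both combined knockdown libraries lay above both siADAR1 libraries, where 29.5% did. The rows that recovered less showed the former in 145 of 147 and the latter in 103 of 147. In 153 members both combined knockdown libraries also lay below both siControl libraries, against 28.1% of rows and 146 of the 147 that recovered less. In those 153 members the 3 groups were thus fully separated in the order siADAR1, combined knockdown, siControl. The same full separation held in 103 of the 147 rows that recovered less and in 1004 of the 11479 rows at the minimum level. In 32 members the combined knockdown and siControl libraries overlapped, against 1 of the 147 rows that recovered less and 2192 of the 11479 rows at the minimum level. The median difference between the replicates of a group was 0.10 on the log2 scale in siControl, 0.12 in siADAR1 and 0.09 in the combined knockdown, against a median fall of -1.46. Over all rows at the minimum level these differences were 0.12, 0.07 and 0.08. In siADAR1, where their reads were fewest, the members differed more between replicates than all rows did.

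Recovery was then computed from 1 library of each group in all 8 ways. In 172 members it was at least 50% in all 8, and in 28 it was lower in at least 1. The width of this range was 14.4 percentage points at the median, with quartiles of 8.07 and 25.2 and a maximum of 166. None of the 147 rows that recovered less reached 50% in all 8, although 33 did in at least 1. The counts differed by level, and the part of the level in this was not tested. At 100 CPM or more, 45 of 48 members stayed at 50% or above in all 8, at 10 to 100 CPM 81 of 90, and below that 46 of 62.

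**Figure D5:**
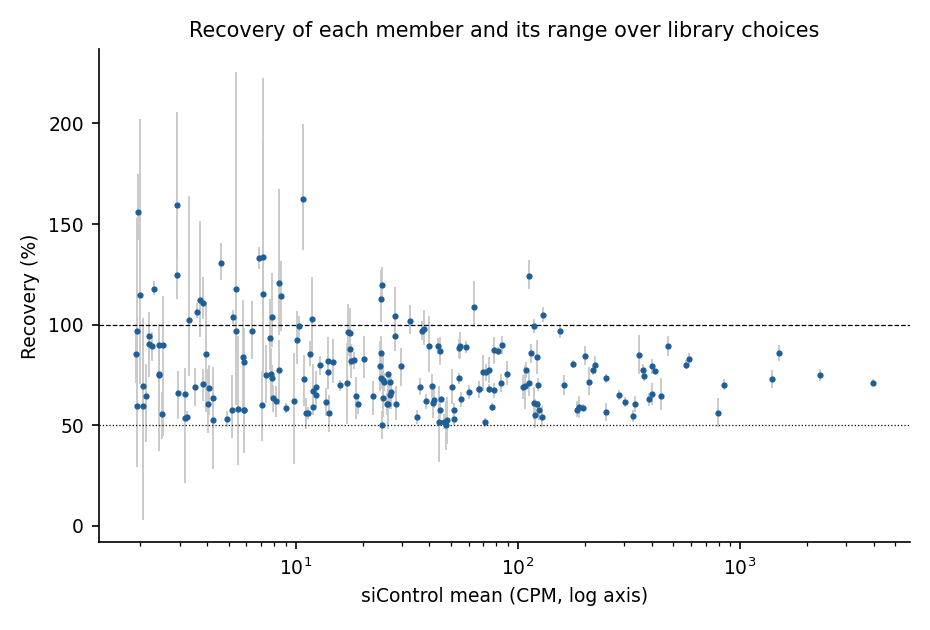
Recovery in percent (y axis) of each of the 200 members against its siControl mean (x axis, CPM on a log axis). Points are from the group means and vertical lines span the 8 choices of 1 library per group. The lines are long under 10 CPM and short above 100 CPM, and most points over 100% (dashed) lie at low levels.

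The rule was also applied to the libraries of each replicate letter on their own. The a libraries gave 221 rows and the b libraries 212, of which 161 were the same, or 72.9% of the former and 75.9% of the latter. All 161 were members. The rows picked from the a libraries had a median recovery of 72.8% in the b libraries (quartiles 59.1% and 88.4%), which had no part in that choice. The rows picked from the b libraries had a median of 74.3% in the a libraries (62.2% and 91.0%). Single rows ran from -332% to 1169% in the former case and from -337% to 14060% in the latter. As the replicates may be technical, the letters need not be independent of each other. Among the 200 members the median recovery was 74.4% with the a libraries and 73.8% with the b libraries. The values of a member differed between letters by 8.002 percentage points at the median, by at most 10 in 115 members and by over 30 in 22. That difference was 20.1 points at the median under 10 CPM, 7.55 at 10 to 100 CPM and 4.62 above.

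Many members had few reads in siADAR1. The lower of the 2 siADAR1 libraries held 211 reads at the median, under 100 reads in 68 members and under 20 in 16. Among the members, 2 were singled out after their values were seen, for the lowest and the highest recovery with the a libraries. The lowest was a row of 5 transcripts with 40 and 53 reads in siControl and 23 and 26 in siADAR1. Its combined knockdown libraries held 23 and 57 reads, so its recovery was 3.20% with the a libraries and 93.4% with the b libraries. The highest was a row of 8 transcripts that gave 226% and 62.3%, with 86 and 163 reads in siControl and 192 and 128 in the combined knockdown. In both rows the siADAR1 libraries lay close together, at 0.915 and 0.881 CPM and at 2.58 and 2.44 CPM, and the libraries that differed were those of the combined knockdown and, in the latter row, siControl.

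The fall and the rise of a row share the siADAR1 libraries, so a low value there enlarges both. When the fall was taken from siADAR1 replicate a and the rise from replicate b, 194 rows met the rule, 172 of them members. With the letters exchanged 191 did, 176 of them members. The median recovery was 74.3% and 76.6%.

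The number of transcripts grouped in a row was not used by the rule. Members had a median of 3 transcripts (quartiles 2 and 4, maximum 27), the rows that recovered less 3 (1 and 4, maximum 16) and all rows at the minimum level 3 (2 and 5). Rows of 1 transcript made up 21.0% of the members, 30.6% of the rows that recovered less and 19.2% of all rows. Rows of 5 or more made up 24.5%, 17.0% and 29.1%. Among the rows that fell, members were 48.3% of those with 1 transcript, 58.6% of those with 2 to 4 and 66.2% of those with 5 or more. The level moved with the number of transcripts, since the members in these classes had median siControl levels of 11.3, 26.9 and 45.1 CPM, and its part in these shares was not tested. Median recovery in the same classes was 71.9%, 74.96% and 72.7%.

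The member with most transcripts, 27, was scarce, with 64 and 79 reads in siControl, 42 and 25 in siADAR1, and 55 and 54 in the combined knockdown. Its recovery was 53.8%, and it fell to 21.0% for 1 choice of libraries. The second, with 17 transcripts, had 16.2 and 18.1 CPM in siControl, 8.11 and 7.73 CPM in siADAR1, and 16.0 and 17.3 CPM in the combined knockdown. Its recovery was 96.3%, and its combined knockdown and siControl libraries overlapped. The next 3 rows, of 16, 14 and 14 transcripts, recovered by 67.0%, 63.1% and 90.4%. All 8 members with 10 or more transcripts had a recovery under 100%, and the 27 members over 100% had at most 8 transcripts. With 27 of 200 members over 100%, so few rows show no relation to the number of transcripts. Of the 49 members with 5 or more transcripts, 5 were over 100%. The median was 3 transcripts both in the members over 100% and in the others. Reads of a row cannot be assigned here to any one of its transcripts.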

How the data were processed

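RNA-seq of 6 A172 libraries was used, with the Lexogen SENSE mRNA kit V2 per the labels' protocols. The authors deposited estimated counts (RSEM expected counts) for each row of UCSC hg19 transcripts, and all are whole numbers. RSEM 1.2.3, edgeR and hg19 are named per the submitters' processing notes, with no role given. For the aligner and the strand setting, nothing is stated (not given in the sources used here), so rows with an antisense partner or a near-identical copy are uncertain.

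The members, the 147 rows beside them and the rankings were chosen with earlier results of these data known. CPM used column totals. edgeR 4.0.16 (R 4.3.3) fitted a mean per group to all 6 libraries after filterByExpr and TMM, with a quasi-likelihood F test and Benjamini-Hochberg adjustment over 14711 rows. DESeq2 1.42.0 was an alternative. The edgeR step was tested on simulated counts with the same spread beyond counting noise in every row. That checks the running of the step and not its error rates in these data. Rows named or described were the 5 highest levels, falls, recoveries and transcript numbers and 3 rows on either side of each threshold, plus 4 rows singled out after their values were seen. With no symbols, IDs are printed for 2 falls and 2 recoveries only, and the planned gene lists were not run. The other alternatives were different scalings, offsets and minimum levels, no filter, a replicate block, fits to 4 libraries, separate siADAR1 libraries for the fall and the rise, a recovery of 75%, and each library left out. Depth speaks for counting error only, as reads are not independent molecules when they carry no molecular identifiers.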

Additional observations from a re-analysis of the deposited data

How the results depend on the processing

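The scaling changed the list most. With TMM sizes 366 rows met the rule, 193 of them members, with a median recovery of 67.8% and 42 rows above siControl. DESeq2 size factors gave 381 rows, 190 of them members, with 67.0% and 46. Column totals raise the level of most rows with siADAR1, so fewer rows pass a 2-fold fall under them. With no minimum level 332 rows met the rule, and with a recovery of at least 75% 94 did, by construction. An offset of 0.01 CPM gave a median recovery of 72.9%, and separate siADAR1 libraries for the fall and the rise gave 74.3% and 76.6%. Leaving out 1 library at a time, the rule gave 199 to 222 rows, a median recovery of 72.5% to 74.2%, and 25 to 33 rows above siControl. In these fits, which take a lone library to vary as the remaining groups do, 200 members were called with siADAR1, 189 to 198 for the combined knockdown against siADAR1, and 136 to 151 lower and 0 to 2 higher than siControl. The 1 member called higher than siControl became 6 with library totals, 3 with no filter, 3 with the 4 libraries alone and 2 with the replicate block. The replicate block gave 199 rows, 198 of them members, and 200 and 198 members called in the first and second comparison and 153 against siControl, 151 of them lower. Across rows, same-letter deviations correlated by 0.076, -0.00031 and 0.028, and no pairing by letter was assumed. The other call counts stayed within 1.5 times. Recovery varied most between libraries in rows under 10 CPM in siControl, and the part of depth in this was not tested.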

Other observations

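Rows with smaller falls also recovered in part. The 790 rows at the minimum level with a log2 change between -1 and -0.5 with siADAR1 had a median recovery of 48.6%, and 48.2% of them reached 50%. For the 347 rows that fell at least 2-fold, apart from the 3 left out, the values were 57.7% and 57.6%. Under TMM scaling 51.5% of the rows that fell at least 2-fold met the rule, and under DESeq2 size factors 49.4%. The difference between the smaller and the larger falls was not tested, and both measures share the siADAR1 libraries.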
